A study of Mus musculus with 24 samples.

Results

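This account follows 8 growth genes through cultured mouse eosinophils: the D-type cyclins Ccnd1, Ccnd2 and Ccnd3, the kinases Pim1, Pim2 and Pim3, the interleukin-2 receptor alpha chain Il2ra (CD25), and Myc. They were taken by gene symbol from a fixed list of growth genes and STAT5 targets, are 8 of the 25746 genes listed in each library, and all 8 were found. RNA was sequenced from bone-marrow-derived eosinophils of C57BL/6 mice in 24 libraries, 3 for each of 8 groups. The knockout groups were Csf2ra-/- with GM-CSF, Csf2ra-/- untreated, Irf5-/- with GM-CSF and Irf5-/- untreated (the first genotype is spelled CSF2ra-/- in the labels). The wild-type (WT) groups received IL-10 with GM-CSF, GM-CSF, IL-10 or neither. All cultures grew in SCF and FLT3-L (100 ng/ml of each) until day 4 and in IL-5 (10 ng/ml) after that, and dead cells were removed on day 13. An overnight stimulation followed, in which GM-CSF was given at 20 ng/ml and IL-10 at a dose the labels do not state. IL-5 stayed in all wells, so that an untreated library is one of cells in IL-5 and not of unstimulated cells.

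IL-5 and GM-CSF bind different alpha chains, of which Csf2ra encodes the one for GM-CSF, and signal through a shared beta chain to JAK2 and STAT5. Cyclin D1, D2 and D3 activate CDK4 and CDK6 and so drive the phosphorylation of RB in G1. The PIM kinases are serine/threonine kinases that need no activating phosphorylation, so that their amount largely follows transcription and protein turnover, and they protect blood cells from death. Ccnd2, Pim1, Il2ra and Myc are known STAT5 targets in lymphoid or myeloid cells, and IL-10 signals mainly through STAT3.

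In the GENCODE M21 annotation of GRCm38, Ccnd1 (ENSMUSG00000070348) lies at chr7:144929931-144939925 on the minus strand, Ccnd2 (ENSMUSG00000000184) at chr6:127125162-127152193 on the minus strand, and Ccnd3 (ENSMUSG00000034165) at chr17:47505051-47599691 on the plus strand. Pim1 (ENSMUSG00000024014) lies at chr17:29490753-29496112, Pim2 (ENSMUSG00000031155) at chrX:7878262-7883432 and Pim3 (ENSMUSG00000035828) at chr15:88862186-88865726, all on the plus strand. Il2ra (ENSMUSG00000026770) lies at chr2:11642807-11693193 and Myc (ENSMUSG00000022346) at chr15:61985391-61990374, also on the plus strand. All 8 are protein-coding, and each count covers the whole gene.

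RefSeq promoter windows of GRCm38.p6, from 250 bases before to 50 bases after a start site, were given for 5 of the 8 genes. Those of Pim2, Pim3 and Il2ra are shown because these genes passed a test below, and that of Cish, a feedback inhibitor of STAT5 and the best known of its targets, because it holds the STAT motif that they lack. Capitals mark the STAT palindrome TTCNNNGAA and the kappaB motif, searched on both strands.
Pim2 (chrX:7878056-7878355, plus strand): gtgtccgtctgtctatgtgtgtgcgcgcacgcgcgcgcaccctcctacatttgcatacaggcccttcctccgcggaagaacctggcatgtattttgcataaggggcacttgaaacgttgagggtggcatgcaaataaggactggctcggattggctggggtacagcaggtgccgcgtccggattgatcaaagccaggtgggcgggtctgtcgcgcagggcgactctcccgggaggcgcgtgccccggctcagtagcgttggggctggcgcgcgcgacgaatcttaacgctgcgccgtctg
Pim3 (chr15:88861944-88862243, plus strand): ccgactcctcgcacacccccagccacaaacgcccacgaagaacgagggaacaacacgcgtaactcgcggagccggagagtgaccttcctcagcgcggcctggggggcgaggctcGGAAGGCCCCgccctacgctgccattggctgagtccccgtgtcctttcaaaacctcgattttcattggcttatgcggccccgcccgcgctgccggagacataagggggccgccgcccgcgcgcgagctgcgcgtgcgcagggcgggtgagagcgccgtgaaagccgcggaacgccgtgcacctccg
Il2ra (chr2:11642542-11642841, plus strand): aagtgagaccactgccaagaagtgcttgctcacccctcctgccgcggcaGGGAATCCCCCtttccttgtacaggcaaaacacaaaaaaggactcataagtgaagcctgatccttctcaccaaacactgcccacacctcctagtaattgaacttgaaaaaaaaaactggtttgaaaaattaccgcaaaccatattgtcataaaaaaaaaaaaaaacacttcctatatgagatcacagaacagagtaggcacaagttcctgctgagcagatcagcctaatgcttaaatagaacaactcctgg
Cish (chr9:107296409-107296708, plus strand): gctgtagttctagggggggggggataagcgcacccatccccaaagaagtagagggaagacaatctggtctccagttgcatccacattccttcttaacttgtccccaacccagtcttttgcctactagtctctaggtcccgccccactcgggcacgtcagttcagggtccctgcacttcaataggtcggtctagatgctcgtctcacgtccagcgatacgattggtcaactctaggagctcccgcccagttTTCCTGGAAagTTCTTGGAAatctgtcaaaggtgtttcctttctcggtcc
The STAT palindrome was in 8.30% of the 32851 windows in the table. It was in none of the windows of Ccnd3, Pim1, Pim2, Pim3 or Il2ra, while Cish had it at positions 1 and 12, counted from the start site. A kappaB match, present in 8.46% of all windows, began at position -201 in Il2ra, where a second match overlaps the first by all but 1 base, and at position -136 in Pim3. The E-box CACGTG, in 7.15% of all windows, was at position -58 of the second Pim1 window (chr17:29492835-29493134). GC boxes (GGGCGG), in 35.7% of all windows, were in those of Pim2, Pim3, both of Ccnd3 and the first of Pim1, which had 7. Neither TATAAA (13.6% of all windows) nor the cAMP response element TGACGTCA (1.79%) was in any window of the 5 genes. A match describes these letters only, and no match says nothing of sites elsewhere.

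Library totals ran between 6222979 and 18709153 counts, and 11885 genes passed the filter on low counts, among them all 8 members, Il2ra only through the groups that received GM-CSF. Eosinophil markers summed to 74360 to 112500 CPM (counts scaled to library size with TMM factors) in each library, and none of the 11 was at 0 in any group. Csf2ra had 28.5 to 39.8 CPM in the Csf2ra-/- libraries, against 41.8 to 83.8 CPM in the other genotypes, so RNA is still made from the gene and its count checks the label in part. Irf5 goes against its label: the libraries labelled Irf5-/- held 1394 to 1999 CPM of it, against 28.3 to 94.3 CPM elsewhere, and any direction drawn from those libraries rests on the label alone. From among the libraries 2 were taken as standing apart from their group. Replicate 1 of untreated Irf5-/- lay among the Csf2ra-/- libraries on the first principal component (21.1, against -0.6 and 2.5 for the others of its group and 16.5 to 27.3 for Csf2ra-/-), and replicate 3 of WT with both cytokines had the lowest mean correlation with its group in wild type (0.9771). Other libraries were also distant: WT GM-CSF replicate 2 lay at 1.6 on that component, against -13.1 and -21.3 for its group, and untreated Csf2ra-/- libraries had mean correlations of 0.9727 to 0.9745. The sum of 4 Y-linked genes was 148.4 to 185.2 CPM in all 6 Csf2ra-/- libraries but varied within the other groups. It was 163.2, 13.2 and 44.0 CPM in Irf5-/- with GM-CSF and 178.1, 12.1 and 39.3 CPM in untreated Irf5-/-, and each WT group held libraries of 47.0 to 60.9 CPM and of 170.7 to 181.6 CPM. The labels name triplicates without their origin (animals, cultures or repeat libraries). Where the Y-linked sums differ this much within a group, its libraries were not all repeats of 1 culture. The link of libraries to animals is not given, so p-values measure only the spread between these libraries.

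All 8 transcripts were detected, at very different levels, though Il2ra had 0 counts in some libraries. Per kilobase of exon, Pim1 stood highest with a mean of 200.4 CPM per kb over the 24 libraries, followed by Pim2 at 116.9, Ccnd3 at 77.3, Pim3 at 45.4 and Myc at 25.3 CPM per kb. Ccnd2 averaged 4.497, Ccnd1 1.84 and Il2ra 0.109 CPM per kb. Cyclin D3 was thus the main D cyclin: its mean share of the family's summed level per kilobase lay between 90.95% ± 0.52 (SD, n = 3) in WT with both cytokines and 94.21% ± 0.28 in Csf2ra-/- with GM-CSF. Among the Pim kinases Pim1 made up 62.3% ± 0.83 in untreated WT, Pim2 25.4% ± 0.71 and Pim3 12.4% ± 1.06. Lengths were those of all exons joined, and with the longest transcript instead Pim1 averaged 249.8, Ccnd3 175.9, Pim2 159.7 and Ccnd2 6.68 CPM per kb, so that the order of Ccnd3 and Pim2 depends on the length used.

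**Figure D1:**
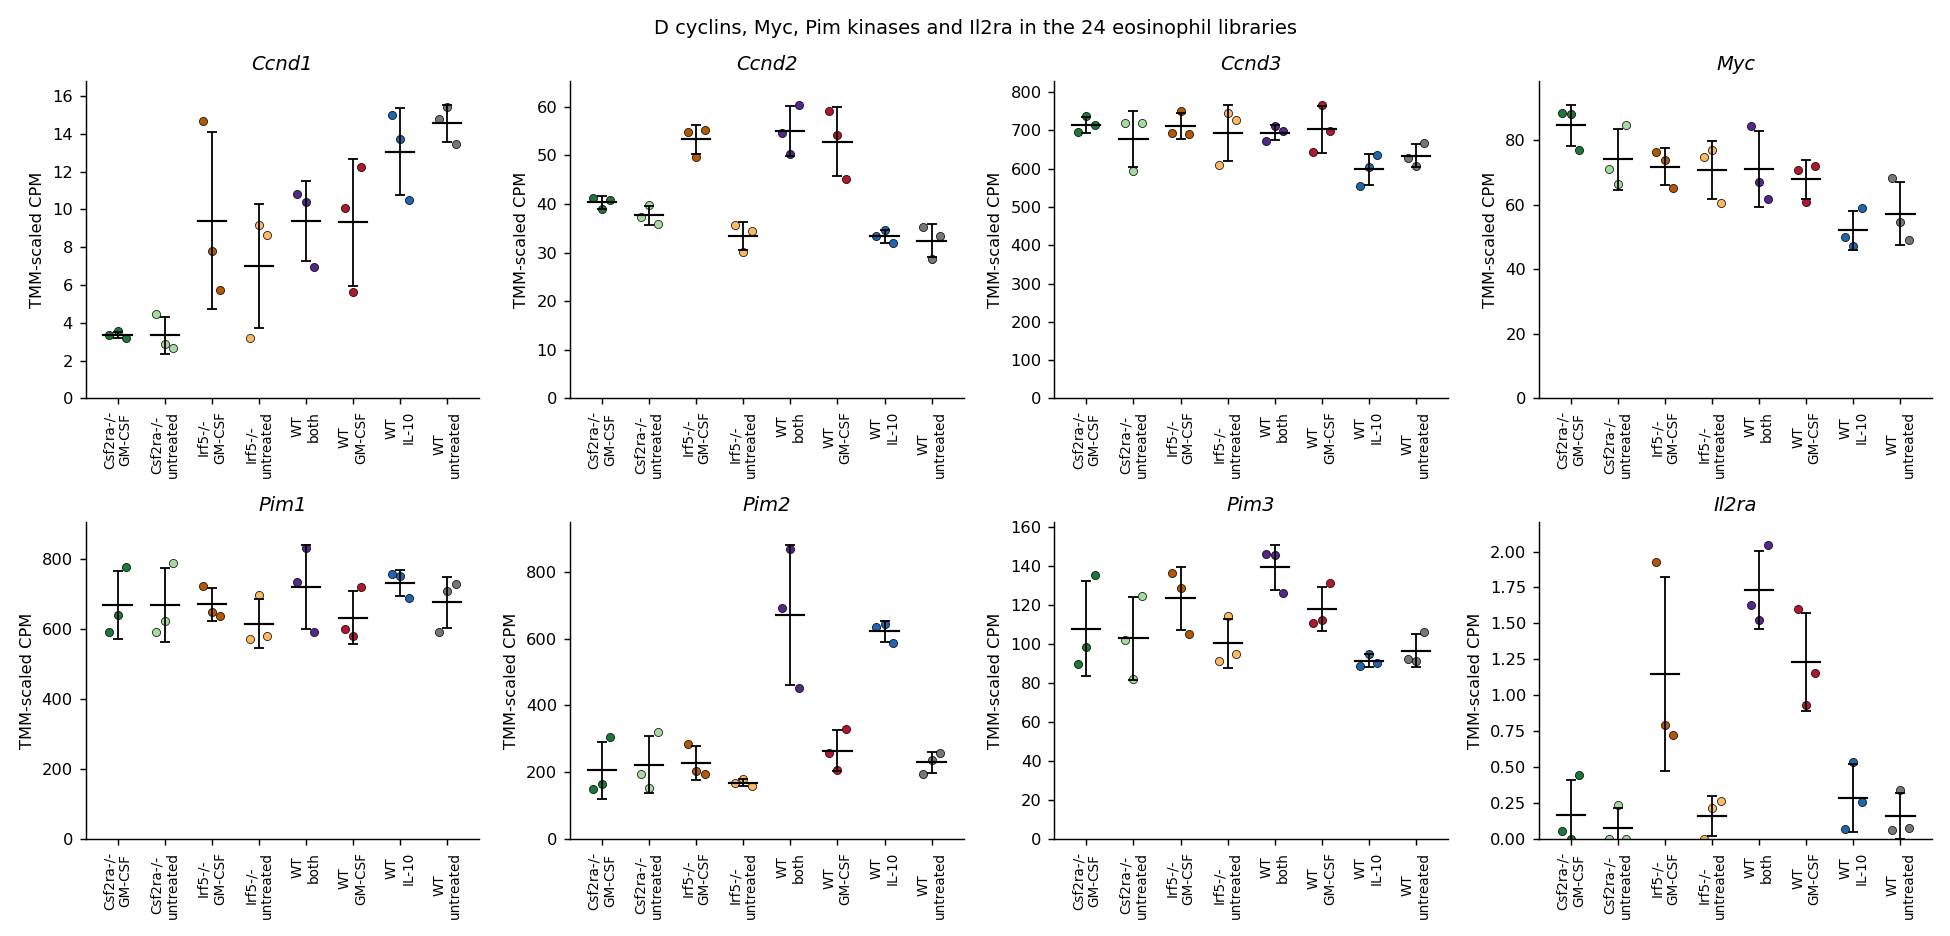
TMM-scaled CPM (vertical axis, linear from 0) of each gene in each of the 24 libraries, by group (horizontal axis; WT both is IL-10 with GM-CSF). Points are libraries, lines are means and bars are SDs (n = 3). Ccnd2 and Il2ra were high in the 3 groups with GM-CSF and an intact Csf2ra, Pim2 in the 2 groups with IL-10, and Ccnd1 was low in both Csf2ra-/- groups.

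**Figure D2:**
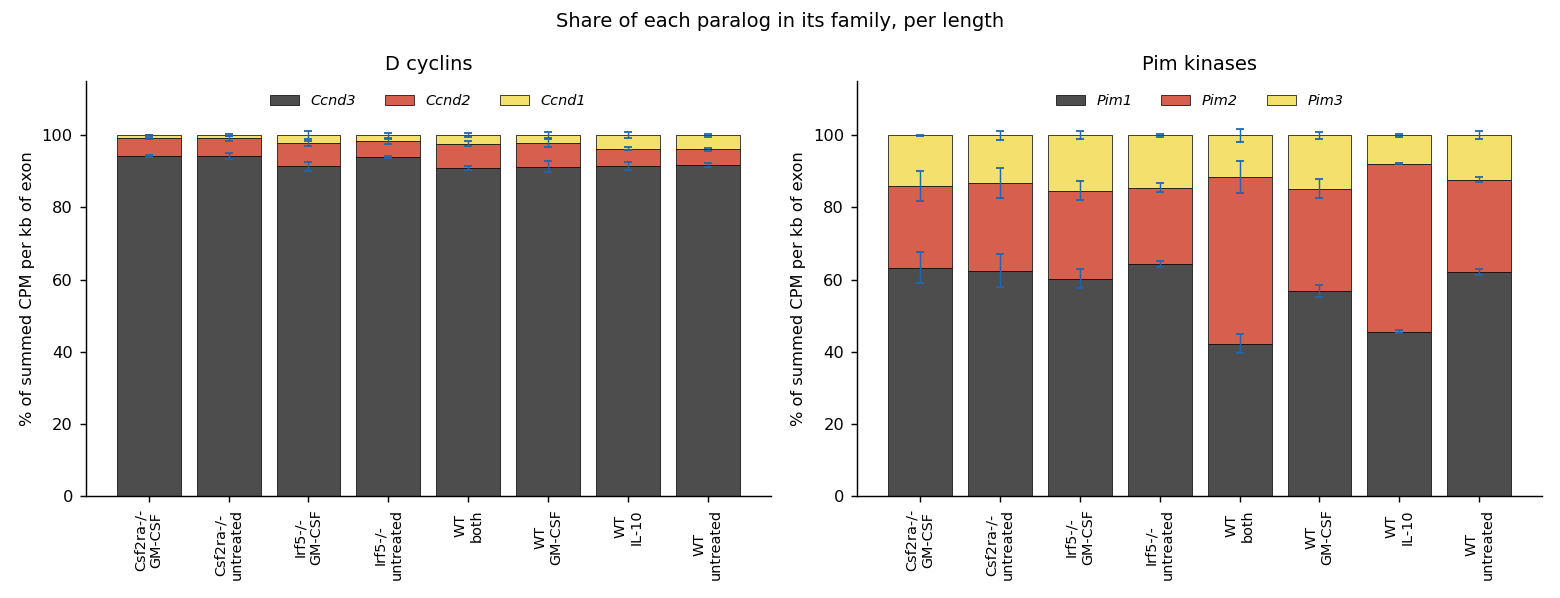
Share of each paralog in the summed level per kilobase of exon of its family (vertical axis, percent), by group, with bars for the SD of each share (n = 3). Ccnd3 was above 90% in all groups, and Pim2 took 46.5% with IL-10 and 46.2% with both cytokines, against 25.4% in untreated WT.

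Ccnd2, the D cyclin most often linked to cytokine signals in blood cells, was higher with GM-CSF in wild type. It had 59.1, 54.3 and 45.2 CPM in WT with GM-CSF, against 35.4, 28.7 and 33.4 CPM in untreated WT. All 3 GM-CSF libraries lay above all 3 untreated ones. The log2 fold change was 0.70 ± 0.11 (SE; 1.63-fold), with an adjusted p of 0.00107 in edgeR's quasi-likelihood test, adjusted over all genes by Benjamini-Hochberg. It was 1 of 8 members called in this comparison, in which 0.555% of all genes tested were called. The change had the same size in the presence of IL-10: Ccnd2 had 54.6, 50.3 and 60.5 CPM with both cytokines and 33.3, 34.7 and 32.0 CPM with IL-10 alone. The groups again did not overlap, and the log2 fold change was 0.73 ± 0.11 (edgeR, adjusted p = 0.000389), where 1 of 8 members and 0.858% of all genes were called. A test of whether the 2 changes differed gave a log2 difference of 0.02 ± 0.15 (edgeR, adjusted p = 0.9999). In the libraries labelled Irf5-/- the gene had 54.8, 49.8 and 55.3 CPM with GM-CSF, against 35.7, 30.1 and 34.4 CPM untreated. All 3 were again above all 3, with a log2 fold change of 0.68 ± 0.11 (edgeR, adjusted p = 0.00261), where 1 of 8 members and 0.353% of all genes were called. These calls held under each of the 14 alternatives run for each comparison, with adjusted p-values of at most 0.0422. Among markers of other cells, those that GM-CSF averaged over IL-10 raised included Cd14, Cxcr2, Zbtb46 and Hbb-bt, and those it lowered included Ms4a7, Cx3cr1 and Il7r, while none of the 11 eosinophil markers was called. Their part in these results was not tested.

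In Csf2ra-/- cells, which lack the GM-CSF receptor chain by label, Ccnd2 had 41.3, 38.9 and 40.8 CPM with GM-CSF and 37.4, 39.8 and 35.8 CPM untreated. These groups overlapped, and the log2 fold change was 0.10 ± 0.11 (edgeR, adjusted p = 0.999). No member was called there, nor any other gene (0.0% of those tested; 531 genes had an unadjusted p under 0.05, and DESeq2 and limma-voom also called 0). The test of the difference itself, the change with GM-CSF in Csf2ra-/- minus that in wild type, gave -0.60 ± 0.15 on the log2 scale for Ccnd2, with an unadjusted p of 0.000531 and an adjusted p of 0.263. It did not pass, and neither did that of any other member, where 0.0589% of all genes were called. For Irf5-/- minus wild type the difference was -0.02 ± 0.15, and no member and 0.0% of all genes were called. No member and 0.0% were called for the change with IL-10 minus that without. Unadjusted p-values under 0.05 numbered 375 and 149 genes in these last comparisons, DESeq2 called 1 gene in each and limma-voom 0. With GM-CSF given to both genotypes, Ccnd2 was lower in Csf2ra-/- than in wild type (log2 fold change -0.39 ± 0.10, edgeR, adjusted p = 0.0351), and the groups did not overlap. Untreated, the direction was the other way, 0.21 ± 0.11 (adjusted p = 0.194), again with groups that did not overlap. The comparison with GM-CSF given to both genotypes shares its WT libraries with the change in wild type. It lost the call in 7 of its 14 alternatives: without any 1 of the 3 Csf2ra-/- GM-CSF libraries (adjusted p 0.0967, 0.164 and 0.0762), without WT GM-CSF replicate 1 (0.225) or replicate 2 (0.119), with no filter on low counts (0.0769) and in a fit of only the groups compared (0.171).

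**Figure D3:**
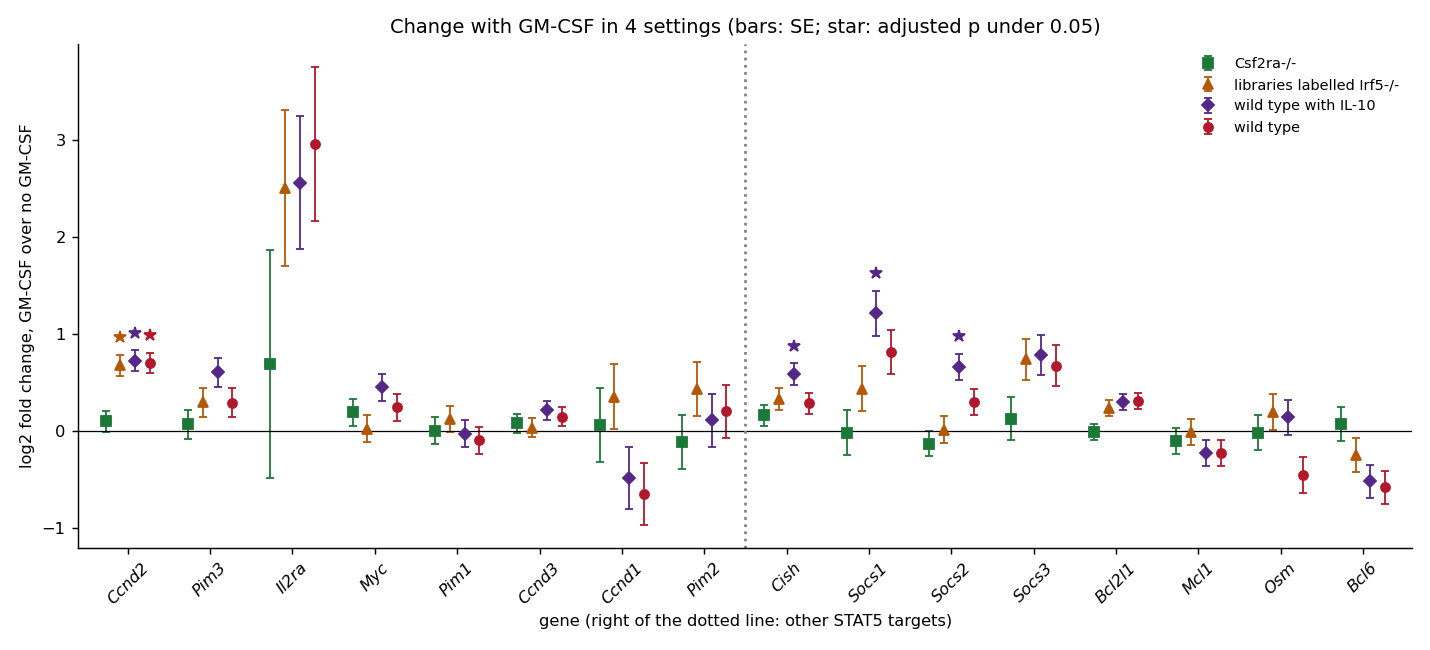
Log2 fold change with GM-CSF over no GM-CSF (vertical axis) for the 8 members and 8 other STAT5 targets in Csf2ra-/-, libraries labelled Irf5-/-, wild type with IL-10 and wild type. Bars are SEs and stars mark an adjusted p under 0.05. Ccnd2 had a star in the last 3 settings, at 0.68, 0.73 and 0.70, and 0.10 in Csf2ra-/-.

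Il2ra encodes the chain that turns the intermediate-affinity receptor for interleukin-2 into the high-affinity one. It was near the floor of detection without GM-CSF and rose with it, to a level that stayed low. Raw counts were 28, 17 and 16 in WT with GM-CSF and 1, 4 and 1 in untreated WT. With both cytokines there were 22, 21 and 39 counts, against 1, 8 and 3 with IL-10. No library with GM-CSF overlapped one without it in either pair. Averaged over IL-10, the log2 fold change was 2.76 ± 0.53 (edgeR, adjusted p = 0.00335). Il2ra entered the set of tested genes through its GM-CSF groups, so a fold change with GM-CSF is here a description and no independent support. Taken alone, the first pair gave 2.96 ± 0.80 (adjusted p = 0.136) and the second 2.56 ± 0.69 (adjusted p = 0.0968), and neither passed. DESeq2 called both, at adjusted p-values of 0.0482 and 0.0427. The ratio of summed counts, scaled to library size, was 8.27 (95% exact interval 3.59 to 23.4) in the first pair and 6.12 (3.32 to 12.3) in the second, intervals that cover counting error only.

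The libraries labelled Irf5-/- had 24, 10 and 10 counts of Il2ra with GM-CSF and 0, 3 and 4 untreated. These did not overlap either, but the log2 fold change of 2.51 ± 0.81 did not pass (edgeR, adjusted p = 0.389). Csf2ra-/- libraries had 1, 0 and 6 counts with GM-CSF and 0, 4 and 0 untreated, which overlap. Il2ra passed the filter on low counts only through groups with GM-CSF, so the next difference is also a description and no independent support. With GM-CSF in both, Il2ra was lower in Csf2ra-/- than in wild type by a log2 fold change of -2.91 ± 0.77 (edgeR, adjusted p = 0.0338). This call was lost without Csf2ra-/- GM-CSF replicate 1 (adjusted p = 0.204) or replicate 2 (0.193), without WT GM-CSF replicate 1 (0.142) or replicate 3 (0.0887), with no filter (0.0524) and in a fit of only the groups compared (0.112). Of the partner chains, Il2rg, the common gamma chain, had group means of 121.0 to 130.5 CPM, and Il2rb, the beta chain, 0.0197 to 0.184 CPM. Markers of T cells, NK cells and innate lymphoid cells, the cells best known for Il2ra, summed to 5.43 to 7.45 CPM in WT with GM-CSF and 10.3 to 10.99 CPM in untreated WT, with Ncr1 at 0 in every library and Cd3e at no more than 0.134 CPM. Among dendritic cell markers Zbtb46 rose with GM-CSF (log2 fold change 1.83 ± 0.39 averaged over IL-10, edgeR, adjusted p = 0.00866), 1 of 6 tested. The summed level of that list was 14.3 to 21.8 CPM in WT with GM-CSF and 13.3 to 16.2 CPM untreated. In the libraries labelled Irf5-/- it was 12.1 to 30.0 CPM with GM-CSF and 5.44 to 14.5 CPM untreated. The library with most Il2ra of its group had the highest dendritic sum in Irf5-/- with GM-CSF (1.93 CPM of Il2ra, sum 30.0 CPM) and the lowest in WT with both cytokines (2.04 CPM of Il2ra, sum 12.8 CPM), and the part of such cells in the Il2ra values was not tested. In bulk RNA, fewer or more cells of a type and less or more RNA per cell cannot be told apart.

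Averaged over IL-10, GM-CSF raised 3 of the 8 members (Ccnd2, Il2ra and Pim3), where 2.54% of all genes were called. Nothing is read from the place of Il2ra in this count or in those below, since it passed the filter only through groups with GM-CSF. Ccnd2 had a log2 fold change of 0.71 ± 0.07 (edgeR, adjusted p = 1.88e-06). Pim3, the least known of the Pim kinases, had 146.2, 145.8 and 126.3 CPM with both cytokines and 111.0, 112.5 and 131.3 CPM with GM-CSF. Where GM-CSF was absent it had 89.0, 95.2 and 90.4 CPM where IL-10 was given, and 92.6, 91.3 and 106.3 CPM in untreated WT. Every library with GM-CSF was above every one without it, and the log2 fold change was 0.45 ± 0.11 (edgeR, adjusted p = 0.0202). The call was lost on leaving out untreated replicate 2 (adjusted p = 0.0697), replicate 1 with both cytokines (0.0562), GM-CSF replicate 3 (0.0570) or IL-10 replicate 1 (0.0666). Separately, the change was 0.61 ± 0.15 in the presence of IL-10 (adjusted p = 0.0579) and 0.29 ± 0.15 in its absence (adjusted p = 0.824). Myc, the transcription factor that drives ribosome production and growth, had 67.9 ± 5.98 CPM with GM-CSF and 57.3 ± 9.90 CPM untreated (SD, n = 3 each). It had 71.1 ± 11.8 CPM with both cytokines and 52.1 ± 6.07 CPM with IL-10. Averaged over IL-10 its log2 fold change was 0.35 ± 0.10 (edgeR, adjusted p = 0.0650), just short of the threshold. It passed with DESeq2 (0.0248) and without untreated replicate 1 (0.0181), replicate 3 with both cytokines (0.0458) or IL-10 replicate 3 (0.0373). Against untreated cells, those given both cytokines had 3 of 8 members called (Ccnd2, Pim2 and Il2ra), where 1.5% of all genes were. Il2ra's log2 fold change there was 3.46 ± 0.77 (edgeR, adjusted p = 0.01998). This call was lost without untreated replicate 1 (0.0997) or replicate 3 (0.163), without replicate 3 with both cytokines (0.0557), and without both libraries that stand apart (0.0569).

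Other STAT5 targets from a list of 8 moved alongside. Averaged over IL-10, GM-CSF raised 5 of the 8 (Cish, Socs1, Socs2, Socs3 and Bcl2l1) and lowered Bcl6, where 2.54% of all genes were called. The median log2 fold change was 0.37, against -0.0005 over all genes tested. The list was chosen with earlier results of these data known, so its count is a description. Socs1, Socs2 and Socs3 are feedback inhibitors of cytokine receptors, Bcl2l1 encodes the survival protein BCL-XL, and Bcl6 is a repressor that STAT5 is known to oppose. Socs1 had 72.4 ± 17.5 CPM with GM-CSF and 41.2 ± 5.30 CPM untreated, and 81.8 ± 8.52 CPM with both cytokines against 35.3 ± 3.73 CPM with IL-10 (SD, n = 3 each). Its log2 fold change averaged over IL-10 was 1.01 ± 0.16 (edgeR, adjusted p = 0.000678), the largest of the 8 in that comparison. Cish rose by 0.44 ± 0.08 on the log2 scale (adjusted p = 0.00169). Of the 6 of these genes with a promoter window, Cish, Socs3 and Bcl6 held the STAT palindrome and Socs1, Bcl2l1 and Mcl1 did not. The part of the motif in these changes was not tested. In the single pair of GM-CSF against untreated, none of the 8 was called in wild type (median 0.29), where 0.555% of all genes were. None was called in Csf2ra-/- (median -0.02, 0.0% of all genes) or in libraries labelled Irf5-/- (median 0.21, 0.353%). With IL-10 present, Cish, Socs1 and Socs2 were called in wild type, where 0.858% of all genes were. The averaged comparison holds more libraries, so its count is not like those of the pairs. Among the 10 genes of the receptors and STAT5 itself, GM-CSF averaged over IL-10 raised only Csf2ra (0.53 ± 0.10, edgeR, adjusted p = 0.00251).

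Genes downstream of these members were read from further lists. Of 19 MYC targets, 5 rose with GM-CSF averaged over IL-10 (Odc1, Fbl, Srm, Nolc1 and Bop1), none fell, and the median log2 fold change was 0.38. The share of all genes called was 2.54%, as above, and a single call in a list of 11 or 18 genes is little above that. Odc1, the first enzyme of polyamine synthesis, had 57.3 ± 6.42 CPM with GM-CSF and 45.8 ± 3.82 CPM untreated. Its log2 fold change averaged over IL-10 was 0.38 ± 0.07 (edgeR, adjusted p = 0.00407), and Bop1, a ribosome assembly factor, rose by 0.48 ± 0.10 (adjusted p = 0.00665). Of 11 MYC network genes tested, the paralog Mycn rose (0.92 ± 0.22, adjusted p = 0.0193) at a low level, 2.17 ± 0.67 CPM with GM-CSF and 1.43 ± 0.67 CPM untreated. Of 18 tested partners and inhibitors of the D cyclins, only Cdkn2b, an inhibitor of CDK4 and CDK6, was called, and it was higher with GM-CSF (0.64 ± 0.16, adjusted p = 0.0311). No proliferation gene of 17 (median 0.12) and no PIM substrate of 8 (median -0.01) was called in that comparison. Of 5 tested relatives of Il2ra, Il7r (-0.69 ± 0.16, adjusted p = 0.0202) and Il15 (-0.66 ± 0.17, adjusted p = 0.0292) fell.

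IL-10 changed 1 member, Pim2. The gene had 634.6, 644.9 and 586.8 CPM with IL-10, against 195.7, 237.9 and 256.1 CPM untreated. It had 692.6, 867.8 and 451.7 CPM with both cytokines, against 256.9, 208.0 and 328.7 CPM with GM-CSF. In each pair all libraries with IL-10 were above all without it, and the lowest with both cytokines was replicate 3, which stands apart. Averaged over GM-CSF, the log2 fold change was 1.39 ± 0.20 (2.62-fold; edgeR, adjusted p = 0.000939), which made Pim2 the 1 of 8 members called where 0.345% of all genes were. The call held in all 20 alternatives. The separate pairs gave 1.44 ± 0.28 (adjusted p = 0.0599) without GM-CSF and 1.34 ± 0.28 (adjusted p = 0.0907) with it, so that 0 of 8 members were called in either, where 0.0505% and 0.0505% of all genes were. In those pairs 539 and 382 genes had an unadjusted p under 0.05, DESeq2 called 30 and 21 and limma-voom 5 and 6. DESeq2 called Pim2 in both (adjusted p 0.000122 and 0.000719). Leaving out replicate 3 with both cytokines gave it 1.56 and an adjusted p of 0.0485 in the second. Against untreated cells, both cytokines raised it by 1.54 ± 0.28 (edgeR, adjusted p = 0.00435).

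Pim2 thereby reached the level of Pim1 per kilobase of joined exons, the length also used for the shares. Pim2 had 222.6 against 218.1 CPM per kb with IL-10 and 240.0 against 214.2 CPM per kb with both cytokines. By the longest transcript Pim2 stood above Pim1, at 304.2 against 271.8 CPM per kb with IL-10 and 328.0 against 266.9 with both. It made up 46.5% ± 0.20 of the Pim family with IL-10 and 46.2% ± 4.45 with both cytokines, against 25.4% ± 0.71 in untreated WT, while the share of Pim1 was 45.6% ± 0.43 with IL-10 and 62.3% ± 0.83 untreated. Pim1 itself averaged 733.4 ± 37.2 CPM in WT given IL-10, against 677.6 ± 73.5 CPM in untreated WT (log2 fold change 0.11 ± 0.14, edgeR, adjusted p = 0.999), and these libraries overlapped. Across the 24 libraries the gene most like Pim2 was Jak3, the kinase bound to the common gamma chain (Pearson's r of log2 CPM 0.970), followed by Bcl3, a nuclear cofactor of NF-kappaB (0.948), and the transglutaminase Tgm1 (0.934). Jak3 averaged 119.7 ± 7.502 CPM in WT given IL-10, against 50.2 ± 7.03 CPM in untreated WT (SD, n = 3 each). For Bcl3 the averages were 25.8 ± 1.99 CPM in WT given IL-10, against 7.45 ± 1.98 CPM in untreated WT. Socs3, a STAT3 target as well as a STAT5 one, also rose with IL-10 averaged over GM-CSF (0.70 ± 0.15, edgeR, adjusted p = 0.0360), as did Il4ra (0.32 ± 0.06, adjusted p = 0.0129). Of 13 monocyte and macrophage markers none was called for IL-10. Their sum was 1625 to 1670 CPM with IL-10 and 1550 to 1659 CPM untreated, and Mrc1 held 91.9, 71.8 and 36.3 CPM in WT given IL-10, against 15.8, 22.6 and 23.1 CPM in untreated WT (averaged over GM-CSF, 1.81 ± 0.47, adjusted p = 0.154). With both cytokines Mrc1 had 21.8, 62.6 and 8.44 CPM in replicates 1 to 3, the same order as Pim2 in those libraries. With IL-10 alone the orders differed, as Pim2 had 634.6, 644.9 and 586.8 CPM in replicates 1 to 3. The part of Mrc1 in the Pim2 result was not tested.

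Ccnd1, the D cyclin most often linked to growth factor receptors and adhesion, was lower in Csf2ra-/- cells whether or not GM-CSF was present. Untreated, it had 4.44, 2.89 and 2.66 CPM in Csf2ra-/- and 14.8, 15.4 and 13.5 CPM in WT. Every Csf2ra-/- library lay below every WT one. The log2 fold change was -2.18 ± 0.35 (edgeR, adjusted p = 0.000765), a call that held in all 14 alternatives. Ccnd1 was the 1 of 8 members called, where 10.8% of all genes were, so the count of members was close to that background. With GM-CSF it had 3.35, 3.54 and 3.18 CPM in Csf2ra-/-, against 10.1, 5.65 and 12.2 CPM in WT. The groups did not overlap here either (-1.46 ± 0.35, adjusted p = 0.0166), and 3 of 8 members (Ccnd1, Ccnd2 and Il2ra, all lower) were called where 3.79% of all genes were. The call for Ccnd1 was lost without any 1 of the Csf2ra-/- GM-CSF libraries (adjusted p 0.0721, 0.0665 and 0.0546), WT GM-CSF replicate 1 (0.0648) or replicate 3 (0.118). In wild type GM-CSF itself gave -0.65 ± 0.32 for Ccnd1 (adjusted p = 0.797), with libraries that did not overlap, and IL-10 gave -0.15 ± 0.31 (adjusted p = 0.999).

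Markers of other cells moved with Ccnd1. In untreated Csf2ra-/- against untreated WT, 9 of 13 monocyte and macrophage markers were lower, among them C1qb, Mrc1, Ccr2 and Cd68, with a median log2 fold change of -2.12. Their whole list summed to 1503 to 2108 CPM in Csf2ra-/- and 1550 to 1659 CPM in WT, a sum carried by genes that did not fall. Dendritic cell markers summed to 5.54 to 7.03 CPM in Csf2ra-/- and 13.3 to 16.2 CPM in WT, with 3 of 6 lower and Xcr1 at 0. Neutrophil markers had 4 of 11 lower, at 1337 to 1654 CPM in Csf2ra-/- and 1705 to 1965 CPM in WT. Cd68, Ccr2, Mrc1 and Cd14, the most abundant of the 9 and chosen after their values were seen, summed to 42.2, 44.2 and 53.3 CPM in untreated Csf2ra-/- and 125.1, 124.2 and 122.7 CPM in untreated WT. Irf5-/- GM-CSF replicate 3 and WT GM-CSF replicate 2 had low sums, 76.2 and 81.2 CPM, with 5.74 and 5.65 CPM of Ccnd1. Higher sums than in untreated WT came with as much Ccnd1 in some libraries and with less in others. They were 136.6 and 191.0 CPM in replicates 1 and 2 with both cytokines and 143.7 CPM in IL-10 replicate 3, with 10.4 to 10.8 CPM of Ccnd1. IL-10 replicates 1 and 2 had sums of 201.4 and 179.0 CPM with 14.99 and 13.7 CPM of Ccnd1. Irf5-/- GM-CSF replicate 1 had 129.3 CPM with 14.7 CPM of Ccnd1. In the same list Ly6c2 averaged 1576 CPM in untreated Csf2ra-/- and 1290 CPM in untreated WT, and Fcgr1 2.53 and 1.70 CPM in these groups. Irf5-/- untreated replicate 1, which stands apart, had 3.20 CPM of Ccnd1 and a sum of 57.1 CPM, against 9.16 and 8.63 CPM and sums of 76.9 and 77.0 CPM in the other replicates of its group. The genes most like Ccnd1 over the 24 libraries were Psap, a lysosomal protein (r 0.948), Tnip3 (0.942) and the lysosomal transporter Slc15a3 (0.936). The part of these other cells in the Ccnd1 result was not tested.

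**Figure D4:**
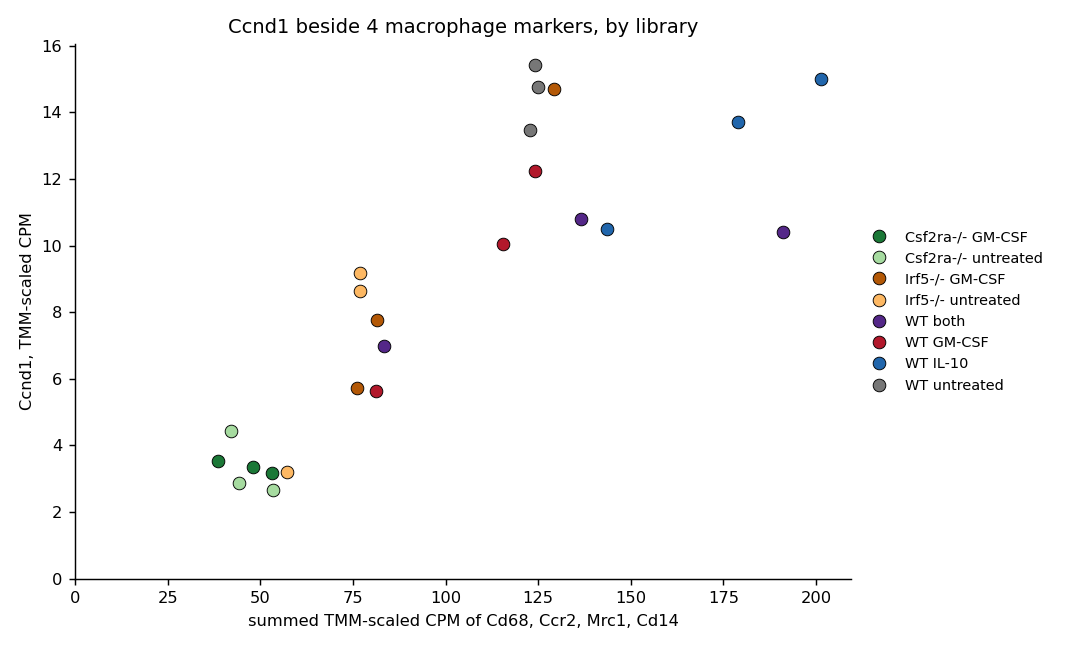
Ccnd1 (vertical axis, TMM-scaled CPM) against the summed TMM-scaled CPM of the macrophage markers Cd68, Ccr2, Mrc1 and Cd14 (horizontal axis) in each of the 24 libraries, coloured by group. The markers are the 4 most abundant of the 9 called lower in untreated Csf2ra-/- against untreated WT. The low sums of untreated Csf2ra-/- thus follow from that choice. The 6 Csf2ra-/- libraries lie at the lower left with sums of 38.6 to 53.3 CPM, and Irf5-/- untreated replicate 1 lies beside them. The 3 untreated WT libraries lie at 122.7 to 125.1 CPM.

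Other genes of the cell cycle were called higher in untreated Csf2ra-/- libraries. In untreated Csf2ra-/- against untreated WT, 13 of 17 proliferation genes rose, among them Ccne1 (0.70 ± 0.16, edgeR, adjusted p = 0.0113), Mcm5 (0.69 ± 0.18, adjusted p = 0.0185) and Pcna (0.64 ± 0.17, adjusted p = 0.0184), and none fell (median 0.60). This is to be read against the 10.8% of all genes called in that comparison, which single calls in lists of 8 or 18 genes do not exceed by much or at all. E2f1, the RB-bound factor that D cyclins release, rose by 0.40 ± 0.11 (adjusted p = 0.0196), the only one of 18 tested partners and inhibitors called. Of 19 MYC targets 6 were called, all higher, such as Srm (0.83 ± 0.17, adjusted p = 0.00440) and Nop56 (0.77 ± 0.15, adjusted p = 0.00293). Mycn was higher (1.03 ± 0.31, adjusted p = 0.0382) and the MYC antagonist Mxd1 lower (-0.45 ± 0.11, adjusted p = 0.0118). Myc itself had 74.1 ± 9.50 CPM in untreated Csf2ra-/- and 57.3 ± 9.90 CPM in untreated WT (log2 fold change 0.37 ± 0.14, adjusted p = 0.0861). That passed without Csf2ra-/- untreated replicate 2 (0.0373) or WT untreated replicate 1 (0.0255). Of the receptor and STAT5 genes, Csf2ra (-0.80 ± 0.14, adjusted p = 0.00171) and Stat5b (-0.49 ± 0.13, adjusted p = 0.0188) were lower, and of the PIM substrates Cdc25a, a phosphatase that opens the cell cycle, was higher (0.53 ± 0.17, adjusted p = 0.0474). Bcl6 (-0.85 ± 0.17, adjusted p = 0.00463) was the 1 of 8 other STAT5 targets called. Erythroid and megakaryocyte markers moved in the same comparison, with Hbb-bs, Hbb-bt and Itga2b higher and Pf4 lower of 4 tested, and so did the eosinophil markers Epx and Prg3 (higher) and Ccr3 and Alox15 (lower), 4 of 11. The part of these in the cell cycle and MYC target counts was not tested. The 17 proliferation genes summed to 2703, 2835 and 2052 CPM in untreated Csf2ra-/-, against 2082, 1601 and 1522 CPM in untreated WT, which overlap. Y-linked sums of these libraries, in the same order, were 172.5, 175.6 and 167.1 CPM and 172.7, 58.2 and 52.7 CPM. In each WT group the highest proliferation sum was in a library with a high Y-linked sum. The part of this imbalance was not tested either. With GM-CSF in both genotypes 1 of 17 proliferation genes was called (Mcm7, 0.45 ± 0.12, adjusted p = 0.0383), and of the other STAT5 targets Osm was higher (0.80 ± 0.18, adjusted p = 0.0138) and Socs3 lower (-0.996 ± 0.21, adjusted p = 0.00722).

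Between the libraries labelled Irf5-/- and wild type no member was called, untreated or with GM-CSF, where 0.0337% and 0.0337% of all genes were called. In these comparisons 1668 and 173 genes had an unadjusted p under 0.05, DESeq2 called 23 and 8 genes, and limma-voom called 4 and 3. Untreated, Ccnd1 had 3.20, 9.16 and 8.63 CPM in the libraries labelled Irf5-/- and 14.8, 15.4 and 13.5 CPM in WT. They did not overlap, and the log2 fold change was -0.99 ± 0.33 (edgeR, adjusted p = 0.285). Pim2 had 167.8, 179.4 and 158.9 CPM there, against 195.7, 237.9 and 256.1 CPM in WT, again apart (-0.45 ± 0.28, adjusted p = 0.453). A fit of only these 6 libraries called both, at adjusted p-values of 0.0417 for Ccnd1 and 0.0312 for Pim2. With GM-CSF the 8 log2 differences lay between -0.21 (Pim2) and 0.08 (Pim1 and Myc).

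Ccnd3 and Pim1, the members of each family with the highest mean per kilobase over the 24 libraries, were called in none of the 16 comparisons. Ccnd3 ran between 555.1 and 767.4 CPM over the 24 libraries with a median of 693.8 CPM, and Pim1 between 570.9 and 831.6 CPM with a median of 670.8 CPM. No group stood apart from its neighbour in the order of means for either gene. The lowest mean of Ccnd3 was 598.6 ± 41.0 CPM in WT with IL-10 and the highest 715.1 ± 21.3 CPM in Csf2ra-/- with GM-CSF. With both cytokines, Ccnd3 had 671.9, 710.8 and 698.1 CPM, against 555.1, 604.2 and 636.6 CPM with IL-10, which did not overlap, but the log2 fold change of 0.21 ± 0.10 did not pass (edgeR, adjusted p = 0.472). For Pim1 the order ran between 616.4 ± 71.3 CPM in untreated Irf5-/- and 733.4 ± 37.2 CPM in WT with IL-10. Known as a STAT5 target, Pim1 gave -0.10 ± 0.14 with GM-CSF in wild type (adjusted p = 0.970), over a background of IL-5 in all wells.

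**Figure D5:**
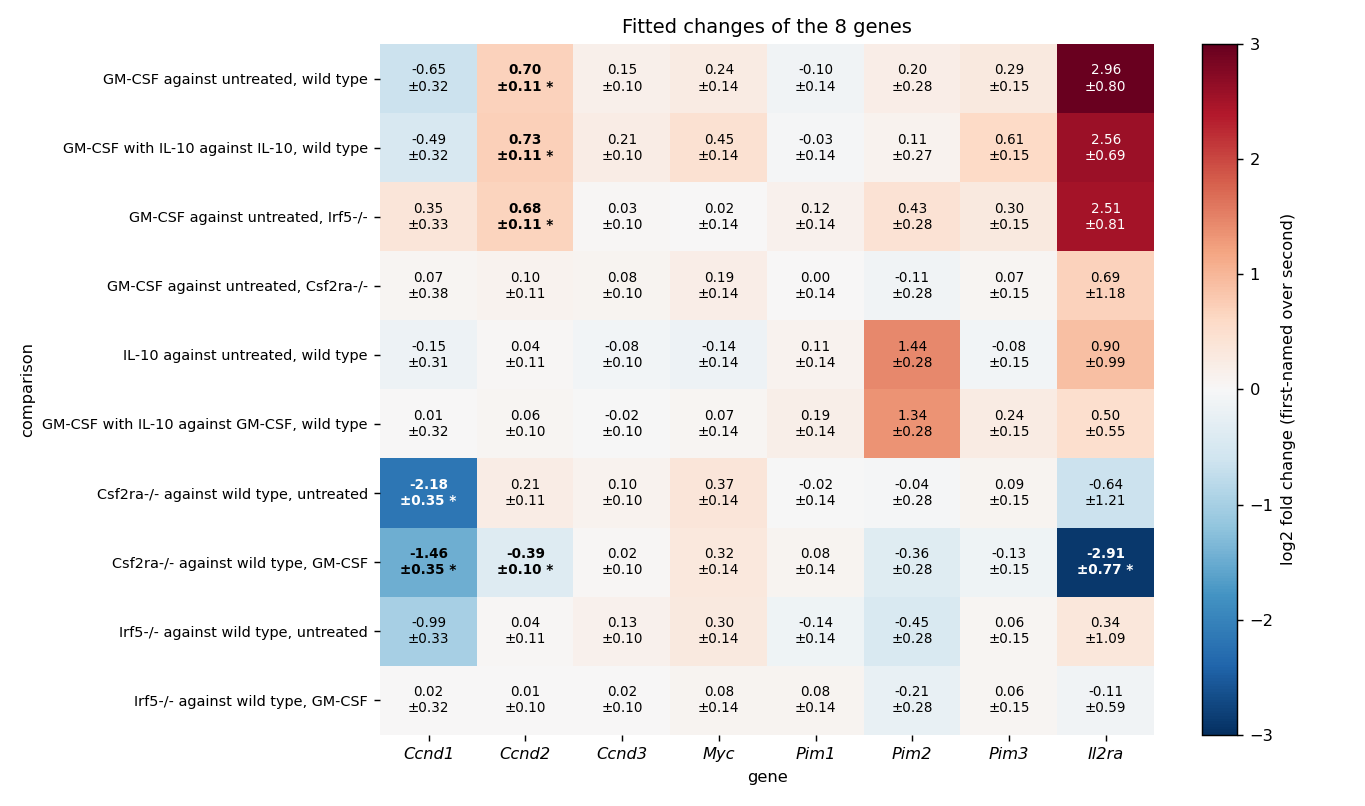
Fitted log2 fold changes (colour, first-named group over second) with SEs of the 8 genes (horizontal axis) in 10 comparisons (vertical axis). Stars mark an adjusted p under 0.05, and the Ccnd3 and Pim1 columns stay within -0.14 and 0.21.

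Across the 24 libraries the members did not move as 1 set. The highest correlation of log2 CPM was between Ccnd2 and Il2ra (Pearson's r 0.759), followed by Pim1 and Pim2 (0.679) and Pim3 and Il2ra (0.645), and the lowest was between Ccnd1 and Myc (-0.561). These describe 24 libraries that share groups, and the genes most like a member were named by the same measure. For Ccnd2 these were Spint1, a protease inhibitor (0.877), Plet1 (0.874) and Hbegf, a ligand of the EGF receptor (0.872), and for Il2ra Il21r, the receptor for interleukin-21 (0.880), Rai14 (0.879) and Clec4n (0.862). Spint1 had 17.6 ± 2.33 CPM with GM-CSF and 6.48 ± 0.63 CPM in untreated WT, and Il21r had 16.7 ± 1.00 CPM with GM-CSF and 10.99 ± 0.56 CPM in untreated WT (SD, n = 3 each). Pim3 was most like Socs1 (0.885), Hemk1 (0.863) and Mfsd13a (0.860). Pim1 was most like Ciart, a repressor of the circadian clock (0.902), Nrbp2 (0.898) and Ndrg2 (0.893). The Ciart window of GRCm38.p6 holds the E-box CACGTG, present in 7.15% of all windows, at positions -116, -58 and -44. No Ndrg2 window holds it, nor does the first Pim1 window, and no window was given for Nrbp2. Ccnd3 was most like Tgfb1 (0.851), Lmna (0.842) and Orai1 (0.840), and Myc most like Lpcat4 (0.856), Sapcd2 (0.851) and Atad3a (0.847).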

How the data were processed

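Poly(A) RNA libraries made with a stranded kit, per the labels' protocols, were read as the deposited read counts per Ensembl gene, whole numbers that the authors had not normalized, 1 file per library. The submitters' processing notes name STAR, featureCounts and GRCm38.p6 without roles or versions. Strand setting and handling of multiply mapped reads: not given in the sources used here. Of 25746 gene IDs, 25712 matched a symbol in GENCODE M21, and the other 34 held 0.0189% of counts. Library totals ran from 6222979 to 18709153, so a gene with few counts, such as Il2ra, is measured with wide error. Groups came from the labels, 3 libraries each, and replicate numbers only name libraries. Replicates were compared by a chi-square test of their counts (3.49 to 66.3 per degree of freedom). No pair looked like 1 library sequenced again, and the test cannot tell whether separate libraries came from 1 culture.

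One model of 8 group means over all 24 libraries was fitted with edgeR 4.0.16 in R 4.3.3 (TMM factors 0.939 to 1.03, filterByExpr by group, robust quasi-likelihood test, Benjamini-Hochberg over 11885 genes, called at an adjusted p under 0.05). The common biological coefficient of variation was 14.1%, and an SE is the log2 fold change divided by the square root of F. The fit was tested on simulated data. CPM are the deposited counts scaled by these factors; levels between genes are per kilobase of joined exons. Alternatives were DESeq2 1.42.0, limma-voom (limma 3.58.1), RLE factors, no filter, a filter of 1 CPM in 6 libraries, only the groups compared, the summed Y-linked level as a covariate, each library left out, and the 2 libraries that stand apart left out, chosen after seeing the data. The members, the 8 gene lists and the 9 marker lists were chosen with earlier results of these data known. Named were all members, the list genes called in a comparison (not all are printed) and, for each member, the 3 genes most correlated with it among those with a mean of at least 5 CPM; other named genes were chosen after their values were seen. One marker gene is not reported here by name.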

Additional observations from a re-analysis of the deposited data

How the results depend on the processing

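Of 2027 log2 fold changes of members under the alternatives, 21 passed only under the alternative, 26 no longer passed and 8 turned their direction, and among the rest 112 sign changes lay within 1 SE of an uncalled value. The cause was not tested in any of these. The count of members called moved as follows. For GM-CSF against untreated it was 2 with DESeq2. For both cytokines against IL-10 it was 3 with DESeq2 and 2 with limma-voom, with no filter and in a fit of only the groups compared. For GM-CSF averaged over IL-10 it was 4 with DESeq2 and 2 to 4 with a library left out, and for both cytokines against untreated 4 with DESeq2 and with only the groups compared, 2 without the libraries that stand apart and 2 to 3 with a library left out (3 for each as reported). For IL-10 against untreated it was 1 with DESeq2, with only the groups compared and without the libraries that stand apart, and for both cytokines against GM-CSF 1 with DESeq2 and 0 to 1 with a library left out. For Csf2ra-/- against wild type it was 1 to 2 untreated with a library left out, and with GM-CSF 1 with no filter, 1 with only the groups compared and 0 to 2 with a library left out. For untreated Irf5-/- against wild type it was 2 with only the groups compared.

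Directions that turned when 1 library was left out belonged to uncalled values, given as their lowest and highest log2 fold change. Myc with IL-10 lay between -0.24 and 0.01. With GM-CSF, Ccnd1 in Irf5-/- lay between -0.12 and 0.61, and in Csf2ra-/- Pim2 lay between -0.495 and 0.25, Pim3 between -0.12 and 0.24 and Il2ra between -1.35 and 4.22. Pim3 in untreated Csf2ra-/- against wild type lay between -0.070 and 0.24, Ccnd1 in Irf5-/- against wild type with GM-CSF between -0.46 and 0.28, and the genotype difference of the Il2ra response between -4.30 and 1.26. Over all genes, DESeq2 called over 1.5 times as many as edgeR in wild type for GM-CSF against untreated (112 and 66 by edgeR), with IL-10 present (168 and 102) and averaged (495 and 302), for IL-10 against untreated (30 and 6), on top of GM-CSF (21 and 6) and averaged (87 and 41), and for both cytokines against untreated (296 and 178). The same held for GM-CSF in Irf5-/- (78 and 42, where limma-voom called 19), Irf5-/- against wild type untreated (23 and 4) and with GM-CSF (8 and 4), and the genotype difference of the GM-CSF effect for Csf2ra-/- (27 and 7). No paired analysis was run, because the labels give no replicate numbers shared between groups and do not tie libraries to animals. The Y-linked sums of both Irf5-/- groups ran alike by replicate number (178.1, 12.1 and 39.3 CPM untreated, 163.2, 13.2 and 44.0 CPM with GM-CSF). Those of the WT groups did not. No pairing was taken from measured values, so any shared origin of libraries is not in the model. Il2ra rests on at most 39 counts a library, so depth limits its values.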
